A study of Homo sapiens with 70 samples.

Results

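The comparison described here is doxycycline (DOX) against DMSO at 5 hr in MIA PaCa-2 cells that carried the guide RNA sgZBTB11 #2, written sgZBTB11-2 below. Its libraries were chosen by their titles: 3 with DOX and 3 with DMSO, which is 6 of the 70 libraries of the series. MIA PaCa-2 cells are an established human line from a pancreatic carcinoma, and the labels give them as resistant to sotorasib, a targeted cancer drug. All groups used here came from this line and were built to express dCas9-KRAB, a dead Cas9 joined to a repressor domain, when DOX is given. The other lines carried sgZBTB11 #1 (sgZBTB11-1), or sgNS, the guide not named for ZBTB11 and taken here as the control. Both were also given DOX or DMSO and collected at 5 hr, with 3 libraries a group, so 18 libraries of 6 groups shared that time. The sgZBTB11-2 line was also collected at days 1, 3 and 5, again with 3 DOX and 3 DMSO libraries a day. The study followed the poly(A) transcriptome over time after induction of the repressor. The sources used here give neither the DOX dose nor the guide sequences, nor whether a line was 1 clone or a pool. The labels do not state that the 3 libraries of a group are separate cultures, and p-values therefore measure a spread between libraries that may be technical.

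ZBTB11 is a zinc finger and BTB domain transcription factor, which in human cells is known to act at promoters of nuclear genes for mitochondrial proteins. In CRISPR interference, the guide leads dCas9-KRAB to a promoter, where KRAB recruits TRIM28 and histone methylation factors that silence the gene. Messenger RNA made before silencing persists until it decays. Doxycycline is a tetracycline, and drugs of this class are also known to inhibit mitochondrial translation.

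The ZBTB11 promoter is shown because it is where a guide for this gene would act. It lies at chr3:101677083-101677382 on the minus strand of GRCh38.p14, from 250 bases before to 50 bases after the RefSeq start, and has 55.3% GC.
ZBTB11: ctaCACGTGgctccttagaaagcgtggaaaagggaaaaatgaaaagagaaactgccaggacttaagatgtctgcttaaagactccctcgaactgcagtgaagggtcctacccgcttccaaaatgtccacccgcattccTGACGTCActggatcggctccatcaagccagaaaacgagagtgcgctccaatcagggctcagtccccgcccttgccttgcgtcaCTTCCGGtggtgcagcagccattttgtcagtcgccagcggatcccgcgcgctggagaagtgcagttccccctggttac
Capitals mark 3 motifs, searched on both strands and not overlapping here: an E-box (CACGTG, found in 7.26% of 35116 RefSeq promoters of this length), a cyclic AMP response element (TGACGTCA, 1.85%) and an ETS core (CCGGAAG, here as its reverse CTTCCGG, 10.3%). These matches describe the letters of the window and are not binding sites.

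The targeted gene was lower with DOX by a small amount. ZBTB11 (ENSG00000066422.7, chromosome 3, 101648889 to 101677132) had 46.7, 46.4 and 45.6 CPM (counts scaled to library size with TMM factors) in the DOX libraries, against 51.4, 53.6 and 51.3 CPM in the DMSO libraries. The highest DOX library lay below the lowest DMSO library. The log2 change was -0.17 (SE 0.047, adjusted p = 0.0072 in edgeR's quasi-likelihood test over all genes). The call was lost without DMSO replicate 2, at a log2 change of -0.15 and an adjusted p of 0.0503. With the trend of each library with transcript length and GC content removed, the change was -0.09 (adjusted p = 0.19). ZBTB11 had 52.1, 53.3 and 52.9 CPM with DOX and 54.3, 49.97 and 54.2 CPM with DMSO in sgZBTB11-1, where the log2 change was -0.0035. In sgNS it had 55.1, 50.9 and 56.8 CPM with DOX and 48.3, 46.7 and 49.9 CPM with DMSO, a log2 change of 0.17. The DOX change of ZBTB11 in sgZBTB11-2 differed by -0.34 from that in sgNS (adjusted p = 4.4e-05) and by -0.17 from that in sgZBTB11-1 (adjusted p = 0.04). With the trend removed the difference from sgNS was -0.0095 (adjusted p = 0.93), and the change itself was -0.14 in sgZBTB11-1 and -0.08 in sgNS.

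Of 9 tested genes around ZBTB11 on chromosome 3, ZBTB11 included, 3 were lower with DOX and 0 were higher, where 8.67% of all genes tested were lower. Without DMSO replicate 2 the count was 1. TRMT10C, a subunit of mitochondrial RNase P, had 55.2, 55.2 and 52.7 CPM with DOX, against 59.1, 64.7 and 59.6 CPM with DMSO, and fell by 0.17 on the log2 scale (adjusted p = 0.0049). PCNP, a nuclear protein named for its PEST sequence, had 78.0, 74.1 and 80.1 CPM with DOX, against 86.9, 88.9 and 83.4 CPM with DMSO, and fell by 0.16 (adjusted p = 0.0036). In both genes the DOX libraries lay below all DMSO libraries. They lie at lower coordinates than ZBTB11, starting at 101561868 and 101574094. The TRMT10C call was lost without DMSO replicate 2 (log2 change -0.13, adjusted p = 0.0755). In the fit free of the length and GC trend 0 of the 9 passed. ZBTB11-AS1, the antisense RNA that overlaps the start of ZBTB11, did not pass (log2 change -0.21, adjusted p = 0.49), and without the strand setting reads of the overlap cannot be told apart.

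The most significant change among the genes tested was at CENPT, a histone-fold protein of the inner kinetochore. CENPT had 381, 394 and 399 CPM with DOX, against 102, 98.5 and 104 CPM with DMSO, a log2 change of 1.94 (SE 0.037, adjusted p = 9e-32). No library of either group came near the other group. THAP11, a zinc finger transcription factor encoded inside the CENPT span on the opposite strand (chromosome 16, 67842320 to 67844195, within 67828157 to 67847693), had 9.42, 8.29 and 9.95 CPM with DOX, against 21.7, 21.5 and 21.7 CPM with DMSO. It fell by 1.23 on the log2 scale (SE 0.076, adjusted p = 4.9e-15). The strand setting of the counts is not given, and reads of the overlap cannot be told apart. CENPT and THAP11 were the only genes with a mean of at least 5 CPM that passed the threshold with a log2 change beyond 1 in either direction.

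Both genes also moved with DOX in the other lines. CENPT changed by 1.28 in sgZBTB11-1 and by 0.87 in sgNS, and its change in sgZBTB11-2 exceeded these by 0.66 (adjusted p = 8.2e-13) and 1.07 (adjusted p = 5.9e-18). The DMSO level of CENPT was 137, 141 and 150 CPM in sgZBTB11-1 and 130, 131 and 142 CPM in sgNS, above the sgZBTB11-2 DMSO libraries. THAP11 fell by 1.28 in sgZBTB11-1 and by 0.85 in sgNS. Its change in sgZBTB11-2 differed from sgNS by -0.38 (adjusted p = 0.0039), while the difference from sgZBTB11-1 was 0.05 (adjusted p = 0.81), which does not show that those lines responded alike. SLC25A36, a mitochondrial carrier of pyrimidine nucleotides, had 91.0, 86.3 and 90.2 CPM with DOX, against 73.5, 74.8 and 71.8 CPM with DMSO. Its rise of 0.28 (SE 0.037, adjusted p = 5e-07) differed by -0.43 (adjusted p = 2.3e-08) from the rise of 0.71 in sgNS. With the length and GC trend removed the difference from sgNS was -0.03 for SLC25A36 (adjusted p = 0.76), -0.63 for THAP11 and 0.85 for CENPT, the last 2 past the threshold. FBXL19-AS1 (0.17, adjusted p = 0.057) and UBXN8 (-0.14, adjusted p = 0.40), which earlier results of this series had placed among doxycycline genes, did not pass.

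**Figure D1:**
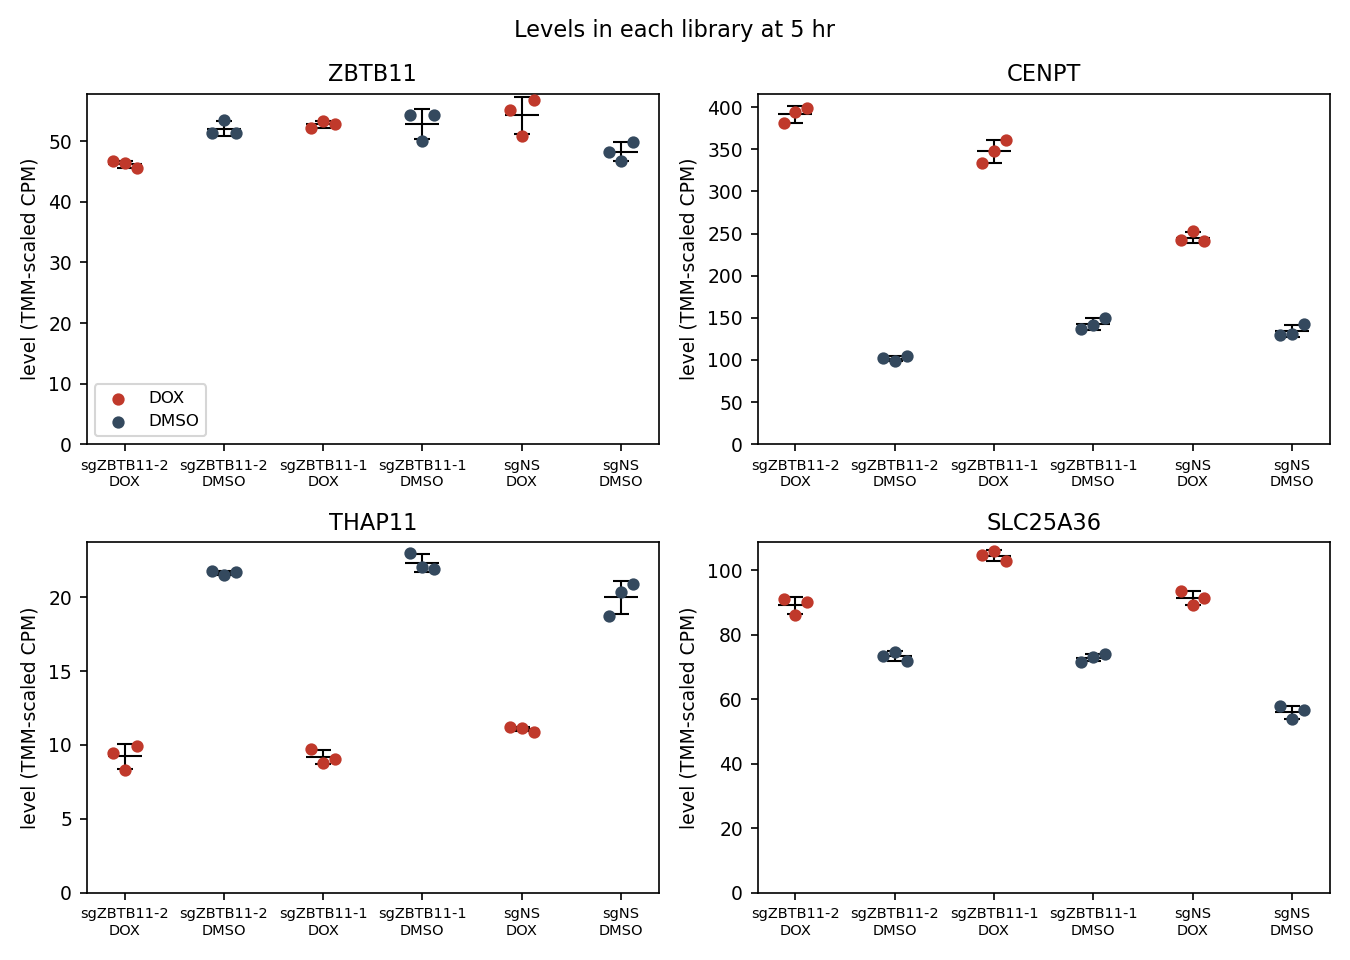
Levels of ZBTB11, CENPT, THAP11 and SLC25A36 in TMM-scaled CPM in each library at 5 hr, by line and treatment, with the mean and SD of 3 libraries. CENPT, THAP11 and SLC25A36 separate DOX from DMSO in all 3 lines, whereas ZBTB11 is lower with DOX in sgZBTB11-2 and overlaps between treatments in sgZBTB11-1.

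Across the transcriptome, many genes moved by little. Of 15623 genes tested, 2659 passed an adjusted p of 0.05 (17%), of which 1304 were higher with DOX (8.35%) and 1355 were lower (8.67%). The median log2 change was 0.24 among genes called higher and -0.19 among genes called lower. Among genes with a mean of at least 5 CPM, 30 called higher and 3 called lower had a log2 change beyond 0.5. Against a minimum change of 1.2-fold, edgeR's glmTreat called 12 genes, 9 higher and 3 lower. The DOX libraries lay above all DMSO libraries for 2527 genes (16.2%) and below them for 2526 (16.2%). Of the 12237 protein-coding genes tested, 1164 were higher (9.51%) and 1312 lower (10.7%). Of 2817 long noncoding RNAs 115 were higher (4.08%) and 37 lower (1.31%).

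Several of the genes named for the largest increases belong to families of near-identical copies. Of 414 pseudogenes tested 25 (6.04%) were higher and 3 (0.725%) lower, so the class as a whole was below the 8.35% of all genes. PKD1P5, PKD1P2, NPIPA1, NPIPA6, NPIPB4, NBPF10 and the readthrough transcripts PPT2-EGFL8 and PKD1P6-NPIPP1 rose by 0.42 to 0.80, and UBE2Q2P1, C4A, ADAM1A, DDX12B and SSPOP by 0.63 to 0.84. Their counts depend on how RSEM divided shared reads, so these values are uncertain. The NPIPA6 call was lost in a fit of the 6 libraries alone (adjusted p = 0.058). PKD1, the gene of polycystin-1, had 265, 269 and 271 CPM with DOX, against 191, 186 and 215 CPM with DMSO (0.44, adjusted p = 3.5e-05), and shares sequence with the PKD1P copies.

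Other genes that rose had no such copies named here. TAF1C, a subunit of the selectivity factor for RNA polymerase I, had 235, 235 and 247 CPM with DOX, against 175, 173 and 188 CPM with DMSO (0.42, SE 0.039, adjusted p = 4.6e-09). ABCA2, a lipid transporter of lysosomes and endosomes, had 232, 237 and 234 CPM with DOX, against 172, 171 and 187 CPM with DMSO (0.41, adjusted p = 4.8e-07). Both were named under a rule that required DOX and DMSO libraries not to overlap, so their separation is not added evidence. SCNN1D, the delta subunit of the epithelial sodium channel, rose by 0.55 (29.7, 29.8 and 32 CPM with DOX, against 20.9, 19.1 and 22.6 CPM with DMSO, adjusted p = 1.9e-06). In sgNS the changes of these 3 genes were -0.60, -0.46 and -0.75.

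The rule for named genes gave 12 decreases of at least 5 CPM, led by THAP11 and SPIN4. SPIN4, of the spindlin family of histone readers, had 5.76, 4.64 and 4.75 CPM with DOX, against 7.45, 8.66 and 6.78 CPM with DMSO, and fell by 0.59 (SE 0.15, adjusted p = 0.0037). PHF6, a PHD-type chromatin protein, had 18.9, 20.7 and 19.2 CPM with DOX, against 28.2, 26 and 27.1 CPM with DMSO, and fell by 0.47 (SE 0.067, adjusted p = 1.9e-06). FOXN2, a forkhead factor, fell by 0.47 (adjusted p = 0.00022) and EIF5A2, a translation factor carrying hypusine, by 0.46 (adjusted p = 0.0012). SGPP1, the phosphatase of sphingosine 1-phosphate, had 22, 20.6 and 20.4 CPM with DOX, against 28.9, 30.1 and 27.3 CPM with DMSO, and fell by 0.45 (adjusted p = 1.7e-05). The chemokine CXCL5 had 75.3, 70 and 70.5 CPM with DOX, against 102, 102 and 91.4 CPM with DMSO, and fell by 0.45 (adjusted p = 1.4e-07). CARNMT1, the carnosine N-methyltransferase, fell by 0.44 (adjusted p = 0.00025) and SLITRK5, a transmembrane protein of neuronal synapses, by 0.46 (adjusted p = 3.2e-05). The naming rule took only genes whose groups did not overlap, so the separation of groups in these 8 genes was fixed by their selection. MAP3K1, a kinase upstream of JNK, LINC02660 and C16orf87 fell by 0.44 to 0.46, but each call was lost when 1 library was left out, at an adjusted p of 0.058 and 0.0888 without DOX replicate 2 for MAP3K1 and LINC02660 and 0.0732 without DOX replicate 3 for C16orf87.

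The largest decreases among genes of at least 100 CPM, named only where groups did not overlap, were small. CAVIN2, a coat protein of caveolae, had 211, 211 and 212 CPM with DOX, against 277, 282 and 279 CPM with DMSO (fell by 0.40, SE 0.030, adjusted p = 1.2e-12). The amino acid transporter SLC38A2 had 417, 401 and 410 CPM with DOX, against 539, 540 and 513 CPM with DMSO (fell by 0.37, adjusted p = 1.3e-11). RCAN1, an inhibitor of calcineurin, had 190, 186 and 189 CPM with DOX, against 239, 247 and 245 CPM with DMSO (fell by 0.37, adjusted p = 1.9e-11). Separation of DOX from DMSO libraries was a condition for naming these genes and is not a separate result. TM4SF1, a tetraspanin-like surface protein of epithelial tumours, averaged 885 ± 13 CPM with DOX and 1128 ± 22 CPM with DMSO (SD, n = 3 each), and fell by 0.35 (adjusted p = 3.2e-13). The small GTPase RAP2B fell by 0.39, ATP1B1, a subunit of the sodium pump, by 0.36 and the Wnt receptor FZD8 by 0.36, at adjusted p-values of 2.6e-11, 4.6e-06 and 4.6e-10. SPTSSA, a subunit of serine palmitoyltransferase, fell by 0.42. Its call was lost without DMSO replicate 2 (adjusted p = 0.0613) and in a fit of the 6 libraries alone (adjusted p = 0.093).

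Messenger RNAs of mitochondrial DNA code for subunits of the respiratory complexes and the ATP synthase. Of 13 tested, 5 rose and 0 fell, where 8.35% of all genes rose and 8.67% fell. The median log2 change of the 13 was 0.07 (all genes tested 0.00). MT-CYB, the cytochrome b of complex III, averaged 8776 ± 136 CPM with DOX and 7871 ± 11.7 CPM with DMSO (0.16, adjusted p = 1e-06). MT-CO1, the catalytic subunit of complex IV, averaged 29047 ± 398 CPM with DOX and 26743 ± 338 CPM with DMSO (0.12, adjusted p = 1.9e-05). MT-ND5, of complex I, and MT-ATP6, of the ATP synthase, each rose by 0.16 (adjusted p = 5e-06 and 0.0012). All mitochondrial DNA transcripts together took 13.3% ± 0.14 of counts with DOX and 12.59% ± 0.11 with DMSO (SD, n = 3 each, exact two-sided permutation p = 0.1, the smallest that 3 against 3 libraries allow). In the other lines the share was lower with DOX, at 12.27% with DOX against 14.07% with DMSO in sgZBTB11-1, and at 12.13% with DOX against 14.12% with DMSO in sgNS.

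Complex I also has many subunits encoded in the nucleus. Of 37 tested subunits of complex I, 3 rose (8.35% of all genes did) and 1 fell (8.67% of all genes did). Without DMSO replicate 2 these were 1 and 0, as they were with the length and GC trend removed. NDUFS7, of its iron-sulfur arm, had 101, 103 and 102 CPM with DOX, against 89.1, 89.9 and 91.4 CPM with DMSO (0.18, adjusted p = 0.00022). That change was 0.03 with the length and GC trend removed (adjusted p = 0.54). Of 78 cytosolic ribosomal protein genes 5 rose and 0 fell, among them RPS15A (0.10, adjusted p = 0.0047), which did not pass with the trend removed (adjusted p = 0.13). In that fit 4 of the list rose and 4 fell, and 2 to 4 rose on leaving out any 1 library. Among 30 ribosome biogenesis genes 10 fell and 4 rose, against 8.67% and 8.35% of all genes. Without DMSO replicate 2 the number lower was 6, and with the trend removed 8 fell and 1 rose. NCL, the nucleolin of the nucleolus, averaged 997 ± 14.5 CPM with DOX and 1185 ± 40.8 CPM with DMSO and fell by 0.25 (adjusted p = 6.4e-08). NOLC1, a nucleolar scaffold, fell by 0.20 (adjusted p = 1.6e-07) and DKC1, the pseudouridine synthase of box H/ACA particles, by 0.19 (adjusted p = 2.3e-05), while NOP2, an rRNA methyltransferase, rose by 0.14 (adjusted p = 0.00044).

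Genes of the heat shock response, which are chaperones under HSF1, had more decreases than the background of 8.67%. Of 16 tested, 7 fell and 1 rose, with a median of -0.12. DNAJB1, a co-chaperone of HSP70, had 181, 196 and 185 CPM with DOX, against 212, 207 and 217 CPM with DMSO (fell by 0.18, adjusted p = 4.2e-05). The co-chaperone DNAJA1 fell by 0.16 (adjusted p = 0.0006). HSP90AA1, the inducible HSP90, averaged 1452 ± 17 CPM with DOX and 1598 ± 23.3 CPM with DMSO and fell by 0.14 (adjusted p = 4.1e-05). The small chaperone HSPB1 was the gene called higher, by 0.08 (adjusted p = 0.047), but it was at -0.05 with the length and GC trend removed and lost its call without 5 of the 6 libraries in turn (adjusted p up to 0.28). Of 17 endoplasmic reticulum stress genes 5 fell and 0 rose, among them the lumenal chaperone HSPA5 (473, 456 and 475 CPM with DOX, against 512, 521 and 531 CPM with DMSO), the calcium-binding chaperone CALR and the disulfide isomerase PDIA4, by 0.16, 0.16 and 0.17. With the trend removed 8 heat shock genes and 7 endoplasmic reticulum genes fell.

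Targets of ATF4, the factor of the integrated stress response that mitochondrial stress can start, include amino acid transporters, folate enzymes and tRNA synthetases. Of 31 tested 0 rose and 5 fell, where 8.35% of all genes rose and 8.67% fell. The number lower was 3 without DMSO replicate 1 or without DOX replicate 3, and 9 with the trend removed. WARS1, the tryptophanyl-tRNA synthetase, averaged 1061 ± 10.1 CPM with DOX and 1229 ± 17.8 CPM with DMSO and fell by 0.21 (adjusted p = 6.1e-08). MTHFD2, a mitochondrial folate enzyme, had 150, 148 and 148 CPM with DOX, against 166, 167 and 161 CPM with DMSO (fell by 0.15, adjusted p = 0.0007). Of 19 targets of NRF2, the oxidative stress factor, 5 fell and 3 rose, with 8 lower once the trend was removed and 3 lower by DESeq2. GCLM, the modifier subunit of glutathione synthesis, had 209, 186 and 202 CPM with DOX, against 252, 261 and 234 CPM with DMSO (fell by 0.32, adjusted p = 7.5e-05). TXNRD1, a thioredoxin reductase, fell by 0.22 (adjusted p = 6.5e-08). ABCC3, an efflux pump for organic anions, rose by 0.24 (adjusted p = 0.0078), and its value with the trend removed was 0.18 (adjusted p = 0.059). Of 10 metal response genes 3 fell, all zinc transporters: SLC30A1 fell by 0.36, SLC39A10 by 0.29 and SLC39A14 by 0.17 (adjusted p = 0.00012, 4.4e-07 and 0.00035). Of 20 targets of p53 0 rose and 5 fell, with 2 lower without DMSO replicate 1 and 3 without DMSO replicate 2 or DOX replicate 3. The 4 of largest change, RRM2B, FAS, BTG2 and PMAIP1, were at -0.36, -0.30, -0.28 and -0.26, and each lost its call when 1 library was left out, at adjusted p-values up to 0.0653, 0.101, 0.11 and 0.0869.

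RAS proteins signal through RAF, MEK and ERK, and ERK activity induces its own inhibitors, so feedback genes read the output of the pathway. Of 22 tested MAPK feedback genes 7 fell and 1 rose, against 8.67% and 8.35% of all genes. SPRED1, an inhibitor of RAS activation, had 11.3, 12.1 and 12.2 CPM with DOX, against 16.4, 15.5 and 14.9 CPM with DMSO (fell by 0.39, adjusted p = 0.00022). SPRY1, a Sprouty inhibitor, had 37, 33.2 and 31.9 CPM with DOX, against 43.7, 43.8 and 41 CPM with DMSO (fell by 0.33, adjusted p = 1.1e-05). DUSP6, the ERK phosphatase, had 192, 189 and 181 CPM with DOX, against 221, 221 and 222 CPM with DMSO (fell by 0.24, adjusted p = 1.1e-07). In these 3 genes the groups did not overlap, and each stayed past the threshold with the length and GC trend removed. ETV4, an ETS factor of the same list, rose by 0.22 (adjusted p = 0.00062), and was at 0.13 with the trend removed (adjusted p = 0.059).

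Of 20 genes of the RAS pathway itself 8 fell and 3 rose, against 8.67% and 8.35% of all genes. With the trend removed 3 genes of the list fell and 1 rose. Leaving out 1 library at a time left 3 to 7 genes lower, the fewest without DMSO replicate 2. ARAF, a RAF kinase, had 61.8, 62.1 and 59.8 CPM with DOX, against 54.9, 49.5 and 55.4 CPM with DMSO (0.20, adjusted p = 0.0018). The phosphatase PTPN11, which acts upstream of RAS, fell by 0.18 (adjusted p = 0.00029).

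Immediate early genes, transcribed without new protein synthesis after growth signals, went in both directions, 4 higher and 4 lower of 30. The background for each list of this paragraph was 8.35% higher and 8.67% lower over all genes tested. FOS had 71.3, 70.7 and 67.3 CPM with DOX, against 60.1, 59.3 and 62.6 CPM with DMSO (0.20, adjusted p = 0.00062). EGR1 rose by 0.16 (adjusted p = 4.9e-05). JUN, the partner of FOS in AP-1, had 147, 151 and 149 CPM with DOX, against 184, 172 and 176 CPM with DMSO (fell by 0.25, adjusted p = 2.2e-06). KLF6, a zinc finger factor, fell by 0.25 (adjusted p = 5.3e-07). With the trend removed 2 of the list rose and 11 fell. Without DMSO replicate 2 these were 2 and 7. YAP targets read the Hippo pathway, and of 14 tested 6 fell and 1 rose. CRIM1, a transmembrane antagonist of BMP signals, fell by 0.32 (adjusted p = 0.00028), TEAD1, the DNA-binding partner of YAP, by 0.28 (adjusted p = 1.4e-06) and AMOTL2, an angiomotin, by 0.23 (adjusted p = 1.2e-06). Of 17 NF-kB targets 5 fell and 3 rose (1 without DMSO replicate 1 or DOX replicate 3), with CXCL8, the chemokine interleukin 8, down by 0.27 (286, 279 and 278 CPM with DOX, against 342, 348 and 329 CPM with DMSO, adjusted p = 8.3e-08) and NFKB2, the p100 subunit, up by 0.24 (adjusted p = 2.3e-05).

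Lipid and glucose genes also split, where 8.67% of all genes tested fell and 8.35% rose. Of 22 cholesterol synthesis genes 5 fell and 1 rose, and 3 fell without DMSO replicate 1, without DOX replicate 1 or with the trend removed. MSMO1, a sterol demethylase, had 14.9, 15.0 and 16.1 CPM with DOX, against 19.9, 19 and 19.5 CPM with DMSO (fell by 0.34, adjusted p = 0.00049). Of 13 fatty acid synthesis genes 3 rose and 3 fell (1 fell without DMSO replicate 2). FASN, the fatty acid synthase, had 469, 482 and 487 CPM with DOX, against 405, 374 and 428 CPM with DMSO (0.25, adjusted p = 6.1e-05), whereas SCD, which desaturates its product, had 431, 427 and 422 CPM with DOX, against 508, 508 and 489 CPM with DMSO (fell by 0.23, adjusted p = 8.7e-09). Each pair of groups was separate, in opposite directions. Of 7 glucose sensing genes 3 rose and 1 fell, the decrease being lost with the trend removed and without any 1 of 4 libraries. MLXIPL, the carbohydrate response factor ChREBP, had 16, 15.3 and 16.3 CPM with DOX, against 10.8, 10.4 and 12 CPM with DMSO (0.52, adjusted p = 1.6e-05). Its dimer partner MLX rose by 0.18 (adjusted p = 0.004).

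Of 34 S phase genes 7 fell and 2 rose. Of all genes tested 8.67% fell and 8.35% rose, which is the background for each list of this paragraph. POLE, the leading strand polymerase, had 212, 226 and 224 CPM with DOX, against 169, 162 and 181 CPM with DMSO (0.37, adjusted p = 8.1e-08), and RFC3, a clamp loader subunit, fell by 0.22 (adjusted p = 0.00021). Of 34 genes of G2 and mitosis 8 fell and 0 rose. The kinase CDK1 fell by 0.18 (adjusted p = 0.0064) and the topoisomerase TOP2A by 0.14 (adjusted p = 0.00091). With the trend removed these were at -0.07 and -0.05 (adjusted p = 0.19 and 0.22), and the list had 3 lower and 2 higher genes. The number lower was also 4 without DMSO replicate 2 or DOX replicate 3. Of 24 integrins, laminins and collagens 5 rose and 4 fell. The laminin chains LAMA5 (234, 231 and 238 CPM with DOX, against 180, 172 and 192 CPM with DMSO) and LAMB2 rose by 0.37 and 0.36 (adjusted p = 4.6e-09 and 1.2e-07), and the integrin chains ITGA6 and ITGB8 fell by 0.27 and 0.21 (adjusted p = 0.0019 and 0.0029). With the trend removed ITGB8 did not pass (-0.13, adjusted p = 0.061), and 2 of the list rose and 3 fell. Of 12 genes through which KRAB silences chromatin 5 fell and 3 rose, and 3 fell with the trend removed or without DMSO replicate 2, DOX replicate 2 or DOX replicate 3. The methyltransferase SETDB1 and the ATPase MORC2 rose by 0.22 each (adjusted p = 0.0022 and 0.00011), and the heterochromatin protein CBX3 fell by 0.18 (257, 252 and 257 CPM with DOX, against 289, 298 and 280 CPM with DMSO, adjusted p = 2.9e-05).

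**Figure D2:**
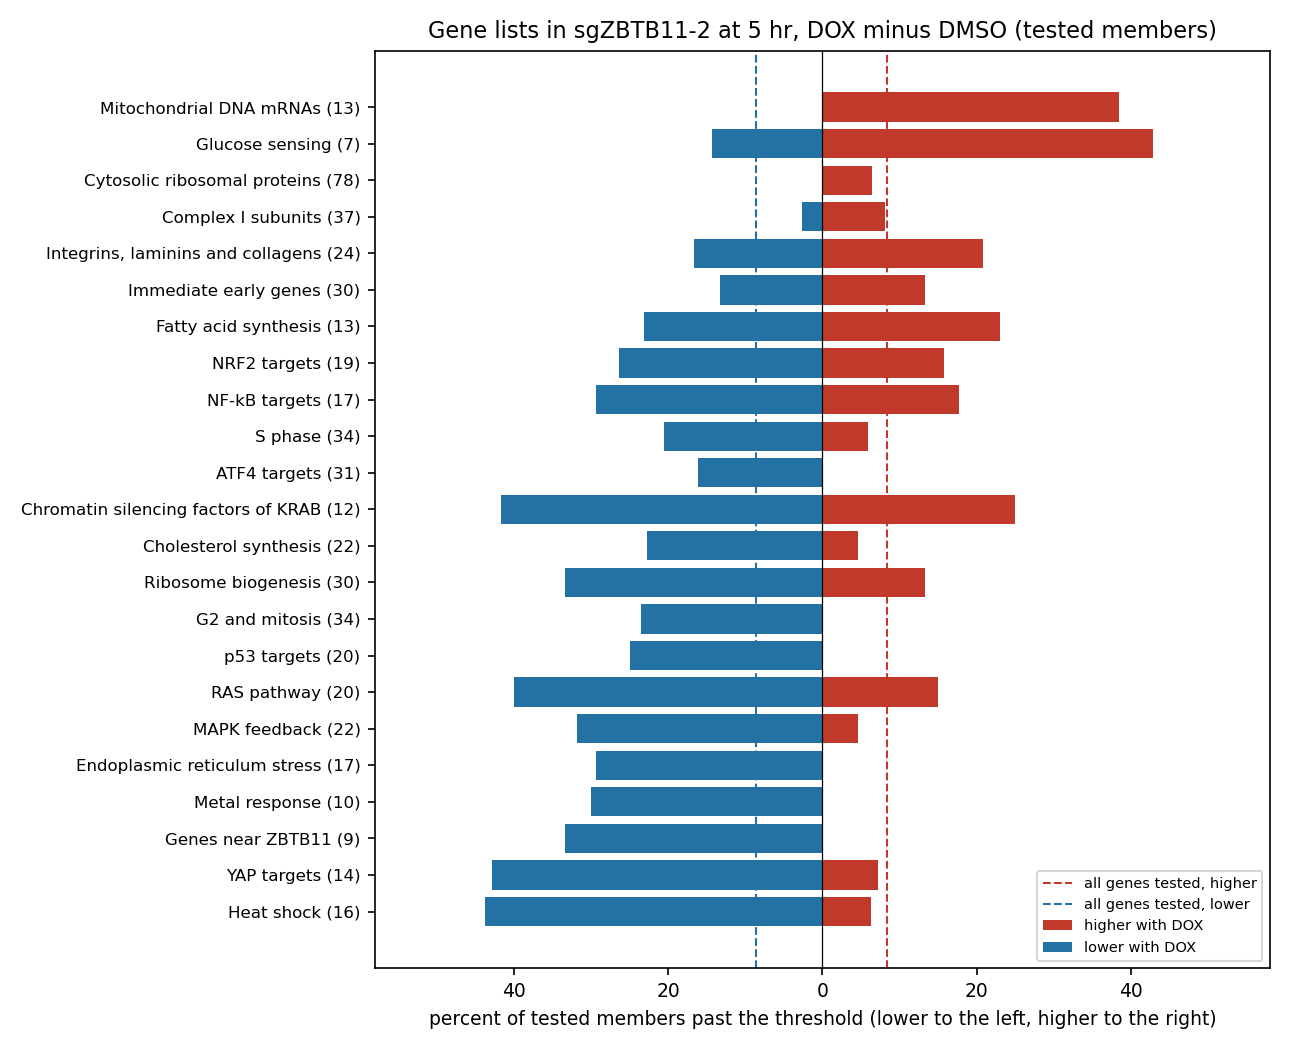
Percent of the tested members of each gene list that passed the threshold in sgZBTB11-2 at 5 hr, lower with DOX to the left and higher to the right, with the number tested in brackets. Dashed lines give the same shares over all genes tested, 8.67% lower and 8.35% higher. Among protein-coding genes alone the shares were 10.7% lower and 9.51% higher.

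The lists stand beside a dependence on base composition. Over 10498 genes with a mean of at least 5 CPM and a GC value, the change with DOX in sgZBTB11-2 had a Spearman correlation with transcript GC of 0.478. Over 10773 genes it had one of -0.181 with transcript length. Both are correlations across genes, which are not independent, and are given without a test. In the fifth of genes with the lowest GC, 27.1% were lower and 1.19% higher with DOX, and the median change was -0.09. In the fifth with the highest GC, 28% were higher and 2.33% lower, and the median was 0.09. Named genes lie along this range, and TAF1C, LAMA5 and FASN were higher while PHF6 and SGPP1 were lower. With the length and GC trend of each library removed, 2257 genes passed (14.4%), 998 higher (6.39%) and 1259 lower (8.06%). In that fit TAF1C was at 0.31, LAMA5 at 0.24 and FASN at 0.15, and PHF6 and SGPP1 at -0.34 and -0.37, all past the threshold.

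**Figure D3:**
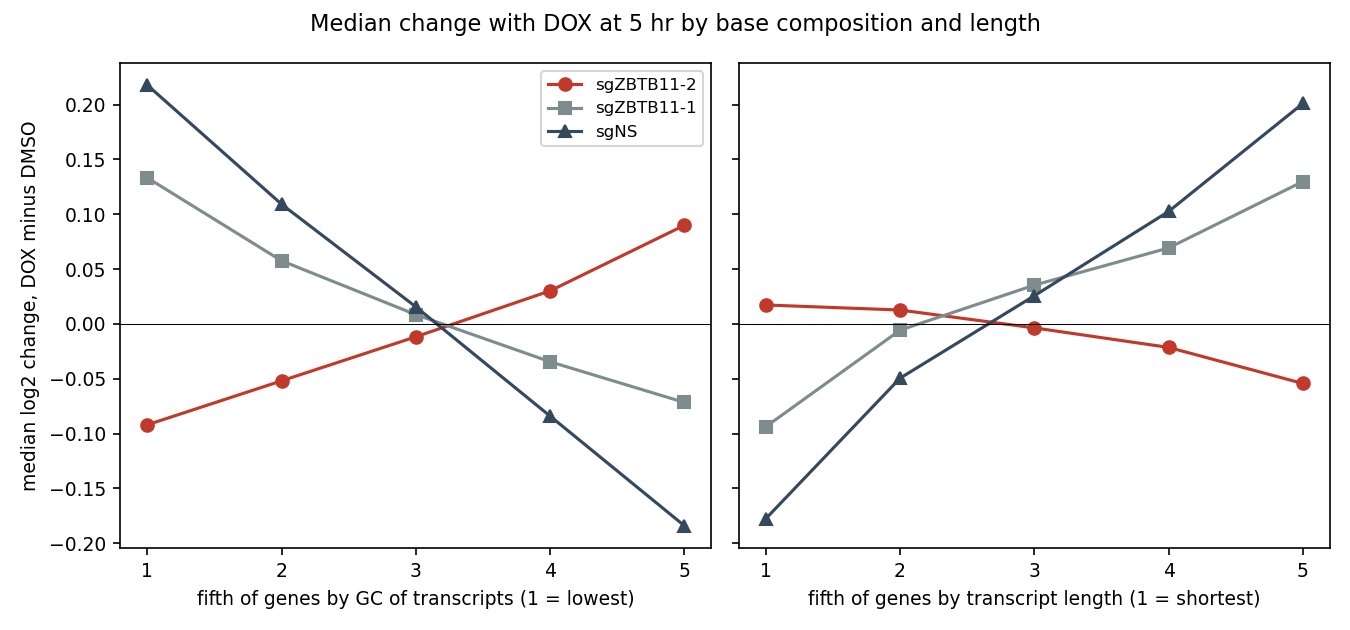
Median log2 change with DOX at 5 hr in 5 equal groups of genes by transcript GC (left) and by transcript length (right), for each line. The sgZBTB11-2 line climbs with GC where sgZBTB11-1 and sgNS descend, and declines with length where they climb.

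The other lines at 5 hr ran mostly the opposite way, in libraries that are not shared with sgZBTB11-2. Of the 1304 genes higher with DOX in sgZBTB11-2, 966 (74.1%) were lower and called in sgNS, and 16 were higher and called. Of the 1355 lower genes, 1067 (78.7%) were higher and called in sgNS, and 42 were lower and called. The background in sgNS was 20.1% lower and 20.9% higher, or 40.9% called, over all genes. In sgZBTB11-1, where 15.4% of all genes were lower and 17.4% higher (32.8% called), 886 (67.9%) and 890 (65.7%) of the same genes were called in the opposite direction. The difference itself was past the threshold for 6400 of 15623 genes (41%) between sgZBTB11-2 and sgNS, and for 5478 (35.1%) between sgZBTB11-2 and sgZBTB11-1. Across 10773 genes the changes correlated at -0.608 (Pearson) between sgZBTB11-2 and sgNS and at -0.557 between sgZBTB11-2 and sgZBTB11-1, and at 0.764 between sgZBTB11-1 and sgNS. With the length and GC trend removed, the values for sgZBTB11-2 were -0.514 and -0.487.

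Single named genes also ran this way. Apart from TAF1C and DUSP6, those given here were picked for the largest differences from sgNS. Their differences and p-values are therefore not separate evidence. SPIN4 and PHF6 were at -0.59 and -0.47 in sgZBTB11-2, against 1.07 and 0.97 in sgNS, and the differences of -1.67 and -1.43 had adjusted p-values of 3.5e-08 and 1.6e-15. SGPP1, the NIMA-related kinase NEK7 and the general transcription factor GTF2A1 differed by -1.33, -1.31 and -1.24, and by -1.01, -0.88 and -0.79 with the trend removed. PLA2G4B, a cytosolic phospholipase A2, had 18.5, 17.9 and 17.8 CPM with DOX, against 13.4, 13.8 and 10.8 CPM with DMSO, and its change of 0.51 stood 1.40 above the -0.89 in sgNS (adjusted p = 3.1e-11). SCNN1D stood 1.30 above sgNS and TAF1C 1.02. DUSP6, at -0.24, was at 0.36 in sgNS (difference -0.60, adjusted p = 1e-14).

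Of 1669 genes called in all 3 lines, 797 were higher in sgZBTB11-2 and lower in both other lines, and 835 were lower in sgZBTB11-2 and higher in both. The same direction in all 3 was found for 23, of which 7 were higher and 16 lower. Beside CENPT, THAP11 and SLC25A36 these included POLR1F, a subunit of RNA polymerase I (47.5, 45.3 and 46.8 CPM with DOX, against 42.1, 41.3 and 39.7 CPM with DMSO), which changed by 0.18, against 0.65 in sgZBTB11-1 and 0.68 in sgNS. Across the lines in that order, EGR1 was at 0.16, 0.17 and 0.48. The keratin KRT18 was at -0.09, -0.13 and -0.29, the chemokine CXCL1 at -0.19, -0.25 and -0.33, and the NF-kB inhibitor NFKBIA at -0.14, -0.49 and -0.29. The POLR1F call was lost with DESeq2 (adjusted p = 0.051). For POLR1F the difference between sgZBTB11-2 and sgNS was -0.49 (adjusted p = 1.4e-07).

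**Figure D4:**
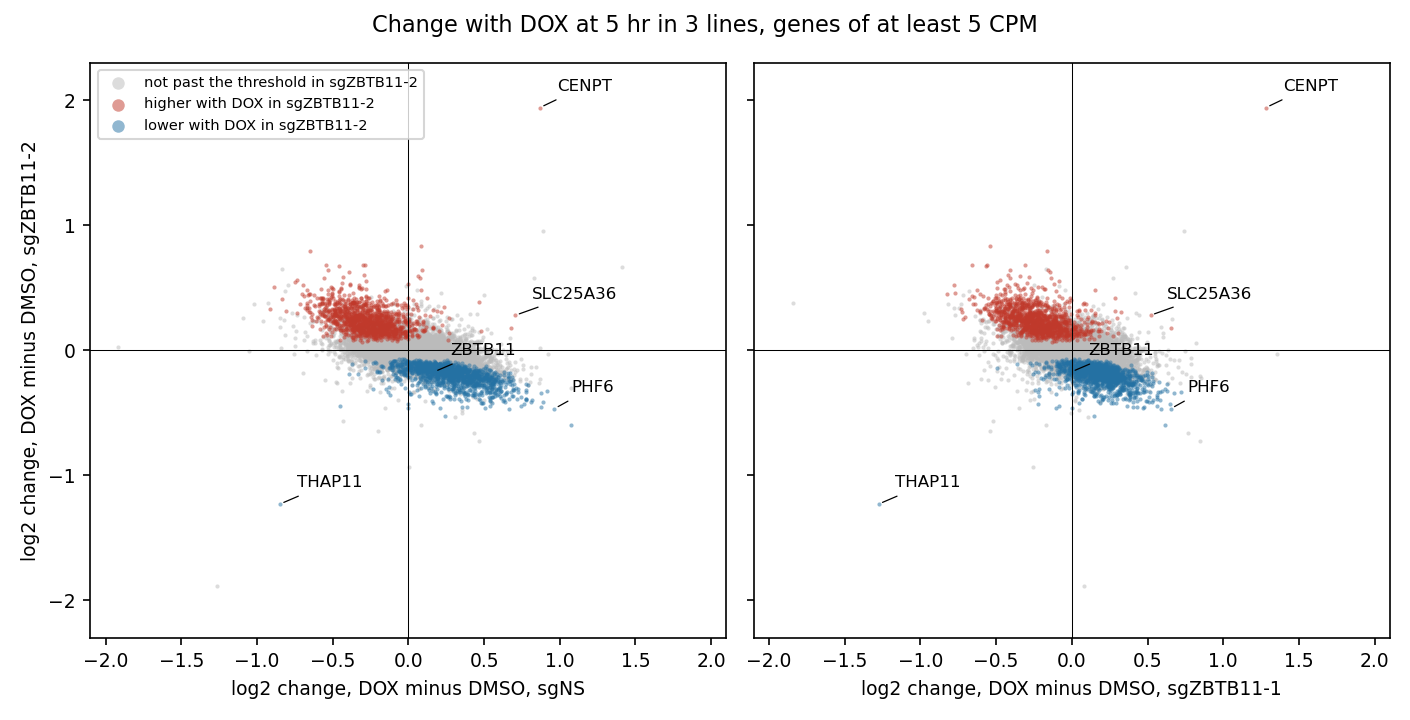
Log2 change with DOX at 5 hr in sgZBTB11-2 (vertical) against sgNS (left, horizontal) and sgZBTB11-1 (right, horizontal), for 10773 genes with a mean of at least 5 CPM, coloured by the call in sgZBTB11-2. Most called genes lie in the upper left and lower right quadrants, while CENPT and SLC25A36 lie upper right and THAP11 lower left.

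Most genes called at 5 hr were not called in the same direction in later DOX libraries of the sgZBTB11-2 line. Of the 1304 genes higher at 5 hr, 16 (1.23%) were higher and called at day 1, where 2.78% of all genes were, and 280 were called lower. Of the 1355 genes lower at 5 hr, 90 (6.64%) were lower at day 1, where 5.74% of all genes were, and 189 were called higher. At day 3, 14 of the higher genes (1.07%) and 57 of the lower genes (4.21%) kept their direction and a call, against 0.338% and 1.15% of all genes. These made up 23% of the 61 genes higher and 27.5% of the 207 genes lower on that day. At day 5, 46 of the higher genes (3.53%) and 175 of the lower genes (12.9%) kept their direction and a call, against 2.70% and 5.15% of all genes. DOX against DMSO was called for 8.52% of all genes at day 1, 1.48% at day 3 and 7.86% at day 5. The change at day 1 differed from the change at 5 hr for 3138 of 18061 genes (17.4%), higher for 8.44% and lower for 8.94%, in a fit of all 70 libraries. In that comparison DMSO replicate 2 of day 1 stood apart from its group, and 2503 genes differed without it. TAF1C was at -0.17 on day 1, a difference of -0.57 (adjusted p = 5.1e-14), and SPIN4 was at 0.47, a difference of 1.08 (adjusted p = 4.5e-05). The tests of day 1 minus 5 hr use the same 5 hr libraries that chose these genes.

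ZBTB11 went the other way, to larger decreases. It was at -0.61 on day 1, -0.78 on day 3 and -0.90 on day 5, and its day 1 change differed from its 5 hr change by -0.42 (adjusted p = 2.3e-05). CENPT was at 1.56, 0.71 and 0.48 and THAP11 at -0.80, -0.26 and -0.15 on days 1, 3 and 5, the day 5 value of THAP11 not past the threshold. Genes called in the same direction at all 4 times numbered 14. Besides ZBTB11, CENPT and SLC25A36 they were EGR1, MT-ATP6 and the glycolytic enzyme PKM, which were higher, and WARS1, NOLC1, the quinone reductase NQO1, the aldo-keto reductase AKR1B1, the chaperonin subunit CCT5, TM4SF18, DNER and KCNN4, which were lower. NQO1 had 550, 543 and 544 CPM with DOX at 5 hr, against 598, 593 and 604 CPM with DMSO, and was at -0.13, -0.12, -0.17 and -0.16 at the 4 times. PKM lost its 5 hr call with the length and GC trend removed (0.06, adjusted p = 0.099). DNER lost its 5 hr call without DOX replicate 2, and KCNN4 without any 1 of 5 of the 6 libraries (adjusted p up to 0.25).

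**Figure D5:**
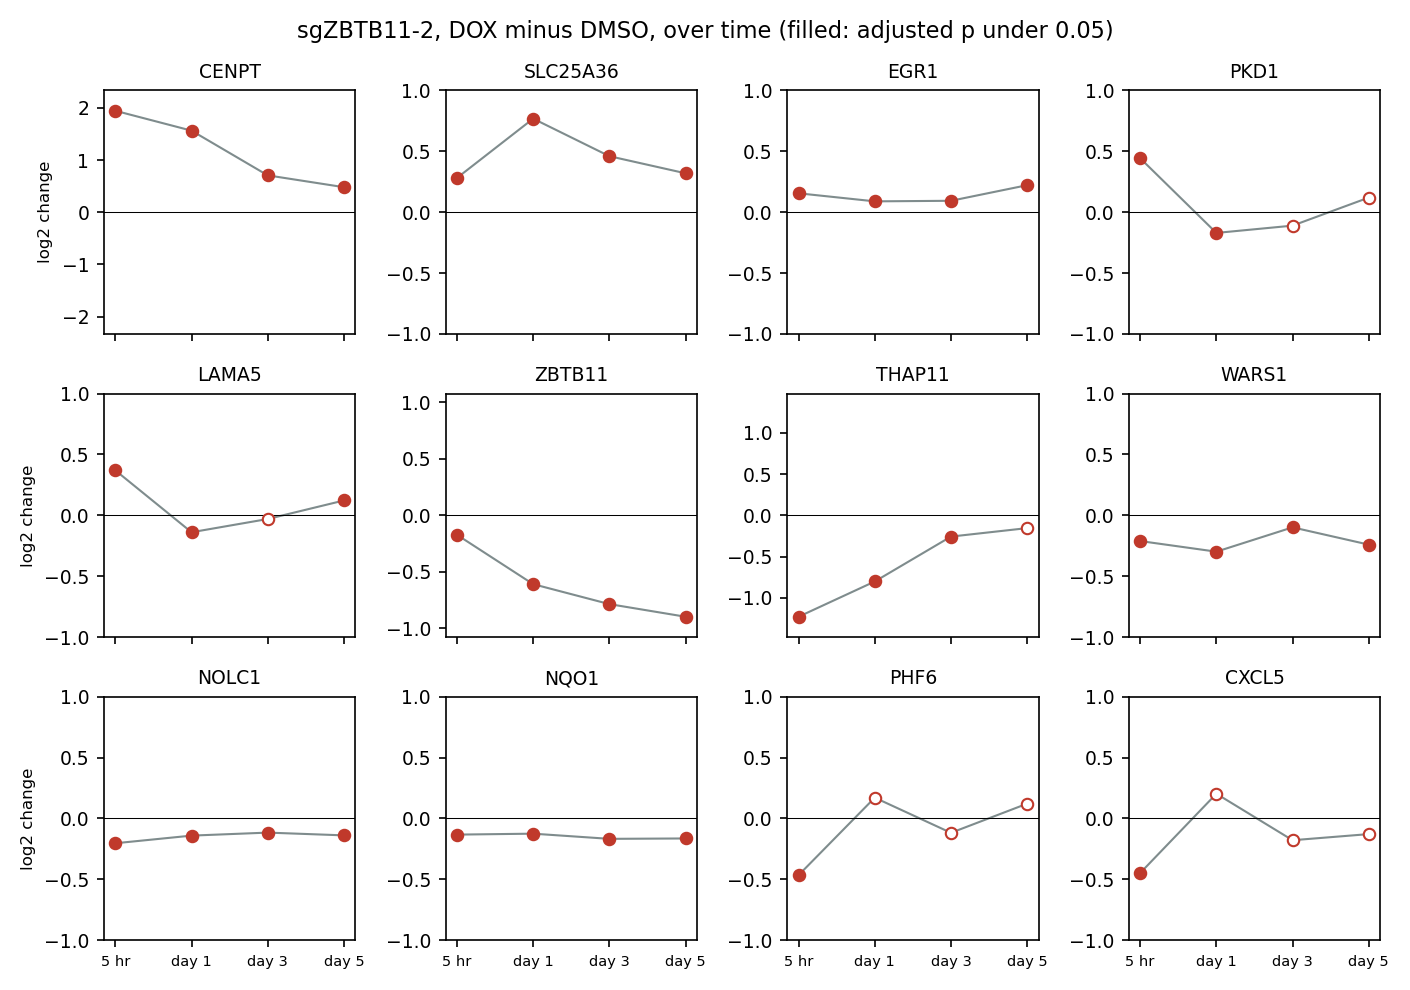
Log2 change with DOX in sgZBTB11-2 at 5 hr and at days 1, 3 and 5 for 12 genes, with filled points past an adjusted p of 0.05 and wider vertical scales for CENPT, THAP11 and ZBTB11. ZBTB11 declines further at each time, CENPT and THAP11 return towards 0, and PKD1, LAMA5, PHF6 and CXCL5 do not hold their 5 hr direction at day 1.

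The 6 libraries held 15332068 to 16994877 counts, within 13340946 to 18313254 for all 18 at 5 hr. Replicates of sgZBTB11-2 at 5 hr differed by a chi-square of 1.33 to 2.48 per degree of freedom, and 0 pairs were identical. The sgNS DMSO replicate 3 stood apart from its group at 4.62 and 4.86, and the sgZBTB11-2 DMSO replicate 2 of day 1 at 4.93 and 3.95. Without the sgNS DMSO replicate 3 of 5 hr, 6266 genes differed between sgZBTB11-2 and sgNS, against 6400 with it. CDKN2A, CDKN2B and MTAP, which are deleted in MIA PaCa-2, had 0 counts in all 6 libraries, which fitted the label of the line. The 10 markers of the line summed to 18200 to 18280 CPM with DOX and 18800 to 19320 CPM with DMSO. That sum was led by VIM, KRT18, KRT8 and S100A6. KRT7, of the same list, was nearly absent, at a mean of 0.09 CPM with DOX and 0.20 CPM with DMSO. Of 8 fibroblast markers 2 (DCN and POSTN) were at 0, and the list summed to 345 to 352 CPM with DOX and 362.9 to 364.9 CPM with DMSO. Most of that sum came from COL1A2, at means of 328.8 CPM with DOX and 344.6 CPM with DMSO. Of 6 endothelial markers 4 were at 0, and the list summed to 28.84 to 31.54 CPM with DOX and 32.84 to 34.78 CPM with DMSO, nearly all from CDH5. Of 9 immune markers 2 were at 0, and the sums were 4.636 to 5.882 CPM with DOX and 3.797 to 6.708 CPM with DMSO. Acinar and islet markers summed to 0 CPM with DOX and to at most 0.178 CPM with DMSO. The part of these differences in the results was not tested.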

How the data were processed

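Poly(A) RNA was sequenced as paired reads on an Element AVITI instrument, per the labels' protocols. The authors deposited expected counts per gene, which are estimates that need not be whole, and TPM, an abundance scaled to transcript length and library size. The submitters' processing notes name RSEM and, as the build, GRCh38.p14. The aligner, annotation version, RSEM version and strand setting were not given in the sources used here. Of 78932 genes listed, 33163 were at 0 in every library. Expected counts were rounded to whole numbers, which altered 5.13% of values.

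Tests used edgeR 4.0.16 under R 4.3.3. Low genes were removed by filterByExpr using the groups, followed by TMM scaling, robust quasi-likelihood F tests and Benjamini-Hochberg adjustment over all genes tested, at an adjusted p of 0.05. All 18 libraries of 5 hr were fitted together, 1 mean for each group, without a block. Differences between lines are differences of DOX changes in that fit, and days 1, 3 and 5 come from a fit of all 70 libraries. Levels are TMM-scaled CPM. SE is that of the log2 change. Values given as mean ± SD are over 3 libraries a group.

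Promoter sequence came from RefSeq tables of GRCh38.p14. Transcript GC came from GENCODE transcript sequences and was known for 93% of genes tested. Relative length came from the ratio of counts to TPM. A smooth trend of each library with both was removed as an alternative.

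Named genes followed a rule: the largest increases and decreases without overlap at 5 CPM and at 100 CPM, the largest differences from sgNS, ZBTB11 and its neighbours, up to 4 members of each list, and genes known from earlier doxycycline results. Genes called in all lines or at all times, and some further list members, were named after their values were seen. Some named genes are not reported here. Members, lists and tests were chosen with earlier results of these data known. The tests were checked on simulated data: the changes put in were recovered, larger ones more often, but a simulated GC trend left in place gave many false calls, and few were left after its removal. Alternatives included DESeq2 1.42.0, limma 3.58.1 on log2(TPM + 1) where 3 or more libraries reached a TPM of 1, RLE scaling, no filter, glmTreat against 1.2-fold, a replicate block and leaving out each library. Fold changes on log2(TPM + 1) understate changes of low genes.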

Additional observations from a re-analysis of the deposited data

Results flagged for a closer look

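The DOX change in sgZBTB11-2 differed from that in sgNS for 6400 genes and from that in sgZBTB11-1 for 5478 genes, each by a test of the difference itself. The day 1 change differed from the 5 hr change in the same line for 3138 genes.

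Among named genes, the difference between the sgZBTB11-2 and sgNS changes, on the log2 scale and tested as such, was past the threshold for ZBTB11 (-0.34), CENPT (1.07), THAP11 (-0.38) and SLC25A36 (-0.43). The ZBTB11 and SLC25A36 differences were lost with the length and GC trend removed, at -0.0095 and -0.03 (adjusted p = 0.93 and 0.76). The positive differences named by rule were 1.45 for the readthrough transcript PPT2-EGFL8, 1.40 for PLA2G4B, 1.30 for SCNN1D, 1.25 for SULT1A3, which has a near-identical copy, and 1.25 for AMT, of the glycine cleavage system. The AMT rise of 0.41 within sgZBTB11-2 lost its call without any 1 of 4 libraries, at adjusted p-values up to 0.19. The negative differences named by rule were -1.67 for SPIN4, -1.43 for PHF6, -1.33 for SGPP1, -1.31 for NEK7, -1.24 for GTF2A1 and -1.22 for TMEM65, a mitochondrial inner membrane protein, and that of TMEM65 was -0.80 with the trend removed. The TMEM65 decrease of -0.41 within sgZBTB11-2 lost its call without DMSO replicate 1 or DOX replicate 2, at adjusted p-values up to 0.0751.

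The share of counts from mitochondrial DNA was higher with DOX in every sgZBTB11-2 library than in any of its DMSO libraries, by 0.714 percentage points on average. It was lower in every DOX library of sgZBTB11-1 and sgNS, at differences of -1.8 and -1.99 percentage points. The difference between the lines in this share was not tested.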

How the results depend on the processing

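The 2659 genes called for DOX against DMSO became 1721 with DESeq2 (799 higher, 922 lower), 1232 with limma on TPM (455 higher, 777 lower) and 12 with glmTreat, and 1797 to 2624 on leaving out 1 library. Other settings gave 2257 to 2900. The 6400 differences from sgNS became 5889 to 6266 and the 5478 from sgZBTB11-1 became 4987 to 5377 on leaving out 1 library. With limma on TPM these split into 974 higher and 4720 lower, against 3188 and 3212, and into 1006 higher and 3256 lower, against 2610 and 2868, and the cause was not tested. The 3138 differences between day 1 and 5 hr became 1792 with limma, 1862 after removal of the length and GC trend, 1864 with the replicate block added to that, and 2503 to 3360 on leaving out 1 library.

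The ZBTB11 change was -0.16 with limma (adjusted p = 0.19), -0.0886 and -0.0884 without the trend, the first with the block (adjusted p = 0.18 and 0.19), -0.17 with glmTreat (adjusted p = 1) and -0.19 to -0.15 without 1 library. HSPB1 turned to -0.0540 without the trend and to -0.0539 with the block added, and SETDB1 to -0.0138 with limma.

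The deviations of DOX and DMSO libraries of the same replicate number correlated at 0.012, -0.056 and 0.009. Pairs of unlike number ranged from -0.068 to 0.062. These values cannot show whether libraries of the same number shared a culture or day. With the replicate block 2830 genes were called for DOX against DMSO, 6489 and 5596 for the differences from sgNS and sgZBTB11-1 and 3161 for day 1 against 5 hr, and ZBTB11 was at -0.17 (adjusted p = 0.0052). With 3 libraries a group, changes of about 0.1 on the log2 scale often crossed the threshold on leaving out 1 library.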

Other observations

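SLITRK5, a gene of transmembrane proteins of neurons, had 24.2, 21.7 and 23.5 CPM with DOX, against 30.7, 34.6 and 29.95 CPM with DMSO, in sgZBTB11-2 at 5 hr. Over all times it was counted in 24 of 24 libraries of the sgZBTB11-2 line, at 14 to 38.5 CPM, and in 0 of 46 libraries of the other lines, so its DOX change cannot be compared with theirs. It was the 1 gene of at least 5 CPM in all 6 sgZBTB11-2 libraries at 5 hr that had no count in the 12 libraries of the other lines at that time, and 0 genes showed the reverse.

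Of 19 tested genes of RNA polymerase II pausing and release 3 rose and 2 fell in sgZBTB11-2 at 5 hr, of 15 SR splicing factors and their kinases 2 rose and 4 fell, and of 22 genes of the TCA cycle 0 rose and 3 fell, against 8.35% and 8.67% of all genes. The genes below were picked after their values were seen. CLK2, a kinase of splicing factors, had 75.6, 79.6 and 84.7 CPM with DOX, against 63.5, 59.4 and 62.1 CPM with DMSO (0.37, adjusted p = 1.3e-08 in edgeR's test). HEXIM1, an inhibitor of the elongation kinase P-TEFb, had 134, 135 and 136 CPM with DOX, against 167, 159 and 154 CPM with DMSO (fell by 0.24, adjusted p = 0.00029), and SUPT5H, an elongation factor, rose by 0.23 (adjusted p = 1.1e-05). In the pyruvate dehydrogenase complex, the binding protein PDHX had 62.2, 57.9 and 58.5 CPM with DOX, against 69.8, 73.9 and 68.9 CPM with DMSO (fell by 0.25, adjusted p = 2.6e-05), and its core acetyltransferase DLAT fell by 0.23 (adjusted p = 0.0009). In sgNS these 5 genes were at -0.28, 0.19, -0.25, 0.17 and 0.45.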
